A study of Mus musculus with 4 samples.

Results

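The centromere proteins and kinesins are the parts of the machinery that moves chromosomes and cargo along microtubules. They were taken as every gene of the RNAseq table whose symbol begins with Cenp and a letter, or with Kif and a digit or the letter c. The rule found 65 of the 24026 genes, 21 of them Cenp genes and 44 Kif genes. Of these, 53 had a mean of at least 1 RPKM (reads per kilobase of gene length, scaled to the read total), 10 lay above 0 and below 1 RPKM, and Kif12 and Kif19a were listed at 0 in every column. At least 1 RPKM was found for 20 of 21 Cenp genes, 13 of 14 mitotic kinesins and 5 of 10 ciliary and centriolar kinesins. The share over all 24026 genes was 49.7%, near that of the ciliary list. The X-linked genes Cenpi and Kif4 were read almost entirely from the maternal S129 chromosome.

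A centromere is marked by nucleosomes that hold CENP-A in place of the usual histone. On these nucleosomes the other CENP proteins assemble as the constitutive centromere-associated network, the inner part of the kinetochore, which in mitosis recruits the outer proteins that grip spindle microtubules. Kinesins are motors that turn ATP into movement along microtubules, or into their disassembly. One set builds the spindle, aligns chromosomes and completes cell division, another carries vesicles, RNA and organelles, and others work in cilia and centrioles. Mouse ESCs divide rapidly, and much of their cell cycle is spent in DNA replication.

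F123-ESCs are a male line from a cross of a S129 mother and a CAST father, so that each autosome has a S129 and a CAST copy and the X chromosome comes from S129. PolyA RNA of untreated cells of genotype S129/CAST was sequenced in 4 libraries, replicates 1 to 4, harvested about 48 h after plating at the end of at least 2 passages without feeder fibroblasts. All libraries are of this single line, no treatment or other line is compared, and nothing says that they come from separate cultures, so that p-values measure the spread between these libraries. For every gene the table gives the RPKM of both alleles per library, made from those reads alone that cover a SNP between the strains.

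Levels are the mean of both alleles within a library, and errors are the SD over the 4 libraries. The libraries held 34120416 to 56627972 allele-assigned reads, fewest in replicate 4, of which S129 took 50.8% to 51.0%. The members took 625624 reads, or 0.331% of all assigned reads. All 6 pluripotency markers examined had at least 1 RPKM and summed to 757 to 949 RPKM per library. Of 7 markers of feeder fibroblasts, 5 had at least 1 RPKM, with a sum of 178 to 224 RPKM, of which Col1a2 made up 166 ± 17.5 RPKM (SD, n = 4), while Dcn and Lum were at 0.659 and 0.046 RPKM. The 6 neuron markers summed to 30.2 to 32.9 RPKM, with means of 19.97 RPKM for Tubb3 and 11.05 RPKM for Map2. The 5 multiciliated cell markers summed to 12.5 to 13.9 RPKM, with means of 10.7 RPKM for Rsph1 and 1.69 RPKM for Foxj1. The 5 germ cell markers summed to 67.3 to 88.5 RPKM, with means of 52.96 RPKM for Dazl, 17.6 RPKM for Sycp3 and 11.01 RPKM for Ddx4. The other markers of these lists were below 1 RPKM, with Rbfox3, Dnah9 and Prm1 at 0.021 to 0.050 RPKM. The part of such cells in the levels below was not tested, and in these bulk libraries fewer cells of a type cannot be told apart from less RNA per cell.

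Levels were first compared between groups of genes with one role, as a description of the cells rather than a test. All 17 genes of centromere chromatin and its associated network had at least 1 RPKM, with a median of 15.9 ± 1.38 RPKM (SD, n = 4). The 14 kinesins of the spindle and of cytokinesis had a median of 31.2 ± 3.23 RPKM (SD, n = 4), and 13 of them were above 1 RPKM. The 16 transport kinesins had 4.09 ± 0.24 RPKM and the 10 ciliary and centriolar kinesins 1.04 ± 0.11 RPKM (SD, n = 4 each), with 14 and 5 genes above 1 RPKM. The transport list also holds Kif2a, Kifc3, Kif26a and Kif26b, whose other roles are given below. The median over all 24026 genes was 0.961 ± 0.036 RPKM (SD, n = 4), and 49.7% of them reached 1 RPKM. In each library the order of these medians was mitotic, centromere, transport and ciliary, without overlap between one list and the next. This order of the mitotic and centromere lists depends on the gene length that is used, as shown next.

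**Figure D1:**
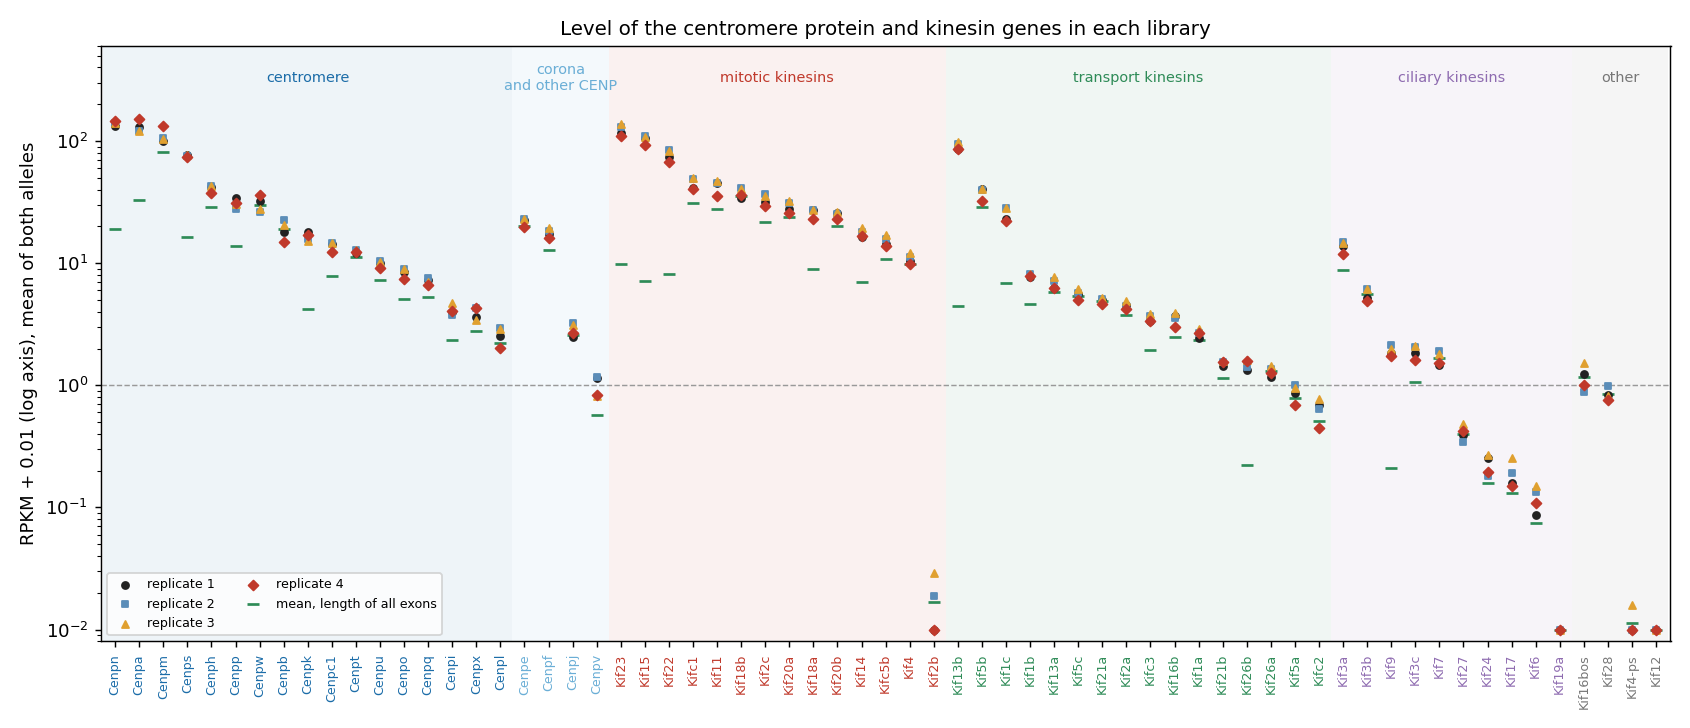
RPKM of each member in each library (points, mean of both alleles, log axis with 0.01 added), ordered by role and mean, with the mean computed from the length of all annotated exons (green bars) and a dashed line at 1 RPKM. The 17 centromere genes all lie above the line, whereas 5 of the 10 ciliary kinesins lie below it, and for Kif23, Kif15, Kif22 and Kif13b the green bar is far below the points.

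The steps between the deposited values gave back the read number and the length behind each RPKM, and all 63 members above 0 came out as whole reads. For 53 members the length was that of the first transcript listed for the gene. Kif15, a motor that helps to hold the spindle poles apart, was divided by 752 bp, whereas its annotated exons cover 11020 bp. Kif13b, a transport kinesin, was divided by 635 bp, which is 20.5 times less than its exons. At least a 2-fold gap was found in 14 of the 53 members with 1 RPKM or more (26.4%) and in 31.5% of the 11943 such genes with a recovered length. The scale of all exons takes reads as counted over every annotated exon, which the sources used here do not state. If fewer exons were counted, its values are too low. With the length of all exons, Kif13b went from 91.3 ± 5.83 to 4.45 ± 0.28 RPKM (SD, n = 4) and from rank 6 to rank 37 of the 65 members. Kif23 went from 124 ± 12.9 to 9.89 ± 1.03 RPKM, and Kif15 from 104 ± 8.29 to 7.11 ± 0.57 RPKM (SD, n = 4 each).

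**Figure D2:**
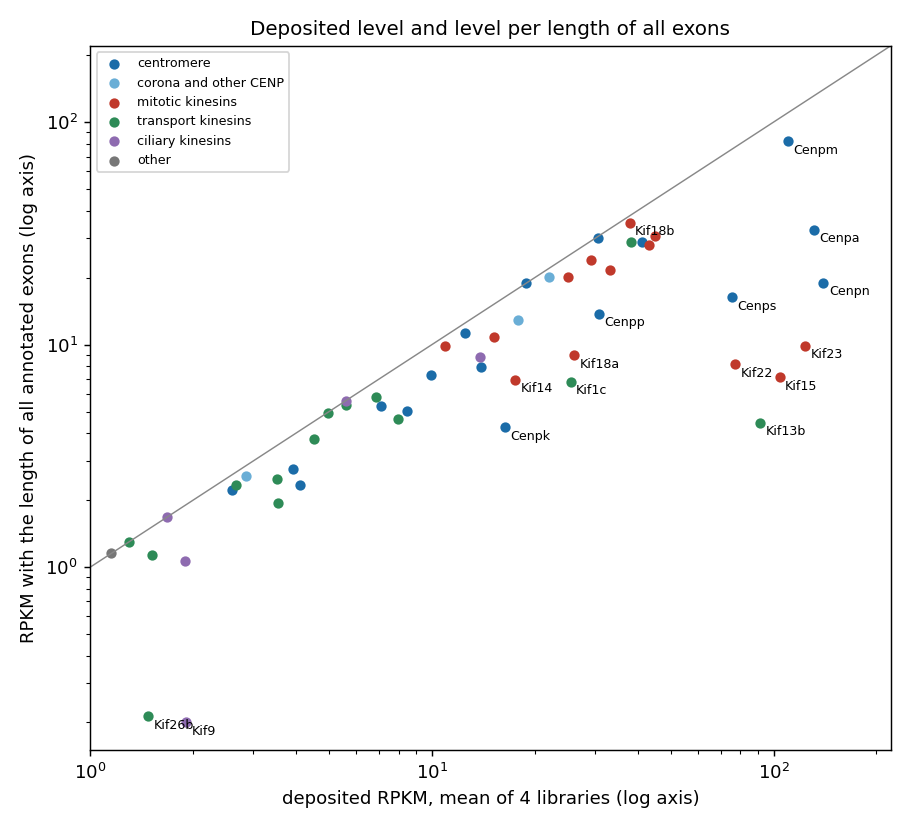
Mean RPKM over 4 libraries as deposited (x axis) against the same reads divided by the length of all annotated exons (y axis), both on log axes, for the 53 members with at least 1 RPKM, coloured by role. The grey line marks equal values, and the labelled points far below it, such as Kif13b at 91.3 and 4.45 RPKM, were divided by a length much shorter than their exons.

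On the scale of all exons the mitotic kinesins had a median of 10.4 ± 0.97 RPKM and the centromere genes one of 11.2 ± 0.30 RPKM (SD, n = 4 each), so that the mitotic median was no longer above the centromere one. With the length of the longest transcript it was above again, at 19.6 ± 1.77 against 13.9 ± 1.01 RPKM (SD, n = 4 each). The transport and ciliary kinesins stayed below both, at 3.14 ± 0.20 and 0.297 ± 0.027 RPKM (SD, n = 4 each). The 10 highest genes as deposited were Cenpn, Cenpa, Kif23, Cenpm, Kif15, Kif13b, Kif22, Cenps, Kifc1 and Kif11. With all exons they were Cenpm, Kif18b, Cenpa, Kifc1, Cenpw, Kif5b, Cenph, Kif11, Kif20a and Kif2c, and 4 genes were in both lists. In both orders, 46 of the 52 neighbouring pairs among the 53 members overlapped in the range of their libraries. A place in the order is thus not told apart from the next for most genes. Only reads over a SNP are counted, and the density of SNPs in each gene also sets its RPKM, which was not corrected here.

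Cenpa encodes the centromeric histone itself. Its level was 131, 120, 121 and 152 RPKM in replicates 1 to 4, highest in replicate 4, with 32.8 ± 3.74 RPKM (SD, n = 4) over all exons. Cenpn, whose protein reads the CENP-A nucleosome, was at 133, 140, 141 and 145 RPKM as deposited and at 19.0 ± 0.64 RPKM over all exons, since it was divided by 447 bp. Cenpm, a subunit of the CENP-H/I/K/M complex, had 101, 106, 103 and 131 RPKM and kept 82.0 ± 10.6 RPKM (SD, n = 4) over all exons, the most of any member on that scale.

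The subunits of one complex did not share one RPKM level, which the density of SNPs in each gene, not corrected here, also sets. Of the H/I/K/M complex, Cenph had 28.9, Cenpk 4.24 and Cenpi 2.33 RPKM over all exons, next to Cenpm. The L/N pair was similarly uneven, with Cenpl at 2.22 RPKM over all exons. As deposited, Cenpl was the lowest centromere gene, with 2.54, 2.95, 2.87 and 2.01 RPKM in replicates 1 to 4. Among the histone-fold proteins T, W, S and X, Cenpw had 30.1, Cenps 16.3, Cenpt 11.2 and Cenpx 2.75 RPKM over all exons. Cenpx was the second lowest centromere gene as deposited, at 3.63, 4.31, 3.43 and 4.26 RPKM from 559 reads. The proteins S and X also act in DNA repair with the Fanconi anaemia pathway. The O/P/Q/U group was more even, between 5.04 RPKM for Cenpo and 13.8 RPKM for Cenpp over all exons. Cenpb, which binds a box in the satellite repeats, had 18.9 ± 3.25 RPKM and Cenpc1, the scaffold of the network, 13.9 ± 1.01 RPKM (SD, n = 4 each) as deposited.

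Of the 4 other CENP genes, 2 encode proteins of the outer corona of the kinetochore. Cenpe, a kinesin that brings chromosomes to the spindle equator, had 22.4, 22.8, 23.0 and 19.6 RPKM. Cenpf, a large coiled-coil protein of the corona, had 17.9 ± 1.42 RPKM (SD, n = 4). Over all exons they had 20.1 and 12.9 RPKM. Cenpj, which acts in the growth of centrioles, had 2.86 ± 0.35 RPKM and Cenpv 0.977 ± 0.19 RPKM (SD, n = 4 each). Cenpv stood above 1 RPKM in replicates 1 and 2, at 1.13 and 1.15 RPKM, and below it in replicates 3 and 4, at 0.80 and 0.82 RPKM.

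Mitotic kinesins were examined together with the start of their genes. Many genes of late cell cycle phases hold a cell cycle homology region, with the letters TTTGAA, to which the DREAM and MuvB complexes bind, often beside a CCAAT box, the site of the factor NF-Y. RefSeq windows of GRCm38.p6, from 250 bases before to 50 bases after the RefSeq start of a gene, were found for 55 members. TTTGAA, read on either strand, was in 11 of 13 mitotic kinesin windows (84.6%), against 20.2% of the windows of all 27025 genes and 13.97% of the 9306 genes with at least 1 RPKM. It was in 4 of 17 windows of centromere genes (Cenpa, Cenpn, Cenpw and Cenpl), in 1 of 4 of the other CENP genes (Cenpf), in 2 of 10 of transport kinesins and in 1 of 9 of ciliary kinesins. The 2 mitotic kinesins without it were Kif18a and Kif2b. Kifc1 and Kifc5b, near-identical copies described below, were both counted among the 13 windows. In Kif23, Kif18b, Kif20b, Kifc1, Kif11, Kif15, Kif22 and Kif4 the letters began at most 19 bases from the start. In Kif2c and Kif14 they began 103 and 228 bases before it, and in Kifc5b 29 bases after it. The RefSeq start of Kif2c lies inside the gene of the GENCODE M21 annotation. Its stretch is at chr4:117178843-117178902 on the minus strand, where that gene begins at 117182639. The same holds for the ciliary kinesin, Kif27, with its stretch at chr13:58354988-58355047 on the minus strand and a gene that begins at 58359122.
The stretches below reach 27 bases to either side of the letters, or to the end of the window, and run 5′ to 3′ along the gene. The copy of TTTGAA or of its reverse complement TTCAAA that is nearest to the start is in capitals, and any further copy (as in Kif20b) in lower case. They come from mitotic kinesins and from Cenpa and Cenpf, and are lined up on the letters:
Kif11: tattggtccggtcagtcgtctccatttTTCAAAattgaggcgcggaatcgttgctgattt
Kif15: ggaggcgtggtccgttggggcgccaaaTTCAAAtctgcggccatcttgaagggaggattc
Kif18b: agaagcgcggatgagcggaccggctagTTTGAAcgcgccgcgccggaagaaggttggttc
Kif20b: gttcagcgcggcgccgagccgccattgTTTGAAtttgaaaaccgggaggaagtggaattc
Kif22: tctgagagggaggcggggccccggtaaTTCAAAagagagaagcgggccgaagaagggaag
Kif4: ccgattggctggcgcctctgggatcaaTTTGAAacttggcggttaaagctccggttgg
Cenpa: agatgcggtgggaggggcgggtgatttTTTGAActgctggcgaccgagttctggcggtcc
Cenpf: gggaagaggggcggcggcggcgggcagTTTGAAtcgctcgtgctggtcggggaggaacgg
The Kif11 stretch lies at chr19:37376336-37376395, that of Kif15 at chr9:122951035-122951094 and that of Kif20b at chr19:34922338-34922397, all on the plus strand. The stretch of Kif18b is at chr11:102925089-102925148 and that of Kif22 at chr7:127042405-127042464, both on the minus strand. Kif4 is read at chrX:100626057-100626114 and Cenpa at chr5:30666875-30666934 on the plus strand, and Cenpf at chr1:189688052-189688111 on the minus strand.

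CCAAT, also read on either strand, was in 9 of 13 mitotic kinesin windows, 12 of 17 centromere gene windows and 2 of 10 transport kinesin windows. It was also in 5 of 9 ciliary kinesin windows and in 2 of 4 windows of the other CENP genes. The share was 41.1% of all windows and 43.1% of the 9306 genes with at least 1 RPKM. Both sets of letters were in 8 of 13 mitotic kinesin windows (61.5%), in 8.97% of all windows and in 6.91% of those 9306 genes. TTCAAA and CCAAT can share a base, as they do in Cenpw. The whole window of Kif23, whose protein bundles microtubules between separating chromosomes and is needed for cytokinesis, holds ATTGG, the reverse complement of CCAAT, and then TTTGAA with 4 bases between them. It is set beside the window of Kif5c, a transport kinesin that holds neither, with the letters found in capitals:
Kif23: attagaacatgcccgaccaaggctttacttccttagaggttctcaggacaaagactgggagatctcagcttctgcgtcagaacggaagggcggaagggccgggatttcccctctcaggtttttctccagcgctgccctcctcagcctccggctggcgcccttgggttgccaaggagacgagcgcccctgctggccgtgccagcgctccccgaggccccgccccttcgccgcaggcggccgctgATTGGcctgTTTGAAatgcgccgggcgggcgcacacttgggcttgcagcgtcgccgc
Kif5c: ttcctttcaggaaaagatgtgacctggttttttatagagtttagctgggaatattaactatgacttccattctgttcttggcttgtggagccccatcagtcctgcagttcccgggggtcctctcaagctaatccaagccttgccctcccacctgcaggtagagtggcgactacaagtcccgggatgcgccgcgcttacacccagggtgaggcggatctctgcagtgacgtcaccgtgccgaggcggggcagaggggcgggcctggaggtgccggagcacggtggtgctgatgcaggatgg
The first is chr9:61946750-61947049 on the minus strand and the second chr2:49619036-49619335 on the plus strand. A match describes these letters in the reference and not a bound site, and no binding was measured here.

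Kif23 was the highest mitotic kinesin as deposited, at 117, 130, 138 and 110 RPKM in replicates 1 to 4. Kif15 had 106, 111, 108 and 92.1 RPKM, and Kif22, which binds chromosome arms and pushes them to the spindle equator, 73.9, 84.4, 82.6 and 67.9 RPKM. In these genes replicate 4 was the lowest library. The 3 genes were divided by lengths of 632, 752 and 518 bp. Over all exons the highest mitotic kinesins were Kif18b, a depolymerase of microtubule ends, at 35.3 ± 3.19 RPKM, and Kifc1, at 30.9 ± 3.21 RPKM (SD, n = 4 each). Kif11, the motor that drives spindle poles apart, followed with 27.9 ± 3.33 RPKM (SD, n = 4).

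As deposited, the low end of the mitotic list was marked by Kif4 and Kif2b. Kif4, a chromosome-bound motor that is X-linked, had 10.48, 11.3, 12.02 and 9.91 RPKM. Over all exons Kif4 had 9.88 RPKM, above Kif18a, Kif22, Kif15 and Kif14 at 8.93 to 6.94 RPKM. Kif2b, a depolymerase related to Kif2c, had 3 reads in all libraries together, whereas Kif2c had 18068 reads and 33.3 ± 3.42 RPKM (SD, n = 4). Kif20a, Kif18a, Kif20b and Kif14 ranged from 17.5 to 29.1 RPKM as deposited. Kif14 and Kif20a act in cytokinesis, and Kif18a damps the movement of chromosomes at the spindle equator.

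Kifc1 and Kifc5b, on chromosome 17, are near-identical copies of a minus-end directed motor that focuses spindle poles. Kifc1 had 44.9 ± 4.67 RPKM from 20057 reads and Kifc5b 15.2 ± 1.40 RPKM (SD, n = 4) from 7587 reads. How reads that match both copies were counted is not given in the sources used here, so the split between them is uncertain. Their RefSeq windows have 249 identical bases among 262 aligned ones (95.0%). The stretches around their TTCAAA are shown to compare the copies:
Kifc1: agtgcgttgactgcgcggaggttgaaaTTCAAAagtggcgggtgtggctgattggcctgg
Kifc5b: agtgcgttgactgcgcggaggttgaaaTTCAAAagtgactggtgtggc
They lie at chr17:33890600-33890659 on the minus strand and at chr17:26917093-26917140 on the plus strand, where the second ends with its window.

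Transport kinesins were led as deposited by Kif13b, Kif5b and Kif1c. Kif13b had 86.1, 94.6, 97.8 and 86.6 RPKM on the short length described above. Kif5b, the conventional kinesin heavy chain found in most cell types, had 40.5, 39.9, 40.8 and 32.1 RPKM, and kept 29.0 ± 3.17 RPKM (SD, n = 4) over all exons. Kif1c, which carries vesicles and RNA, had 25.5 ± 3.35 RPKM as deposited and 6.80 ± 0.89 RPKM over all exons (SD, n = 4 each).

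The paralogs of Kif5b that are best known from neurons were lower. Kif5c had 5.54, 5.69, 6.16 and 4.996 RPKM, and Kif5a 0.85, 0.99, 0.95 and 0.68 RPKM. No library of Kif5c reached the lowest library of Kif5b, and none of Kif5a the lowest of Kif5c. Kif1a, the motor of synaptic vesicle precursors, was at 2.66 ± 0.19 RPKM (SD, n = 4), and Kifc2 was the lowest of the list at 0.628 ± 0.14 RPKM (SD, n = 4).

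Ciliary kinesins ran from 13.8 RPKM down to 0. Kif3a and Kif3b, which together pull intraflagellar transport outward in cilia, had 13.8 ± 1.41 and 5.59 ± 0.64 RPKM (SD, n = 4 each), with Kif3a above Kif3b in every library. Their paralog Kif3c had 1.89 ± 0.23 RPKM (SD, n = 4). Kif9, whose reads were divided by 453 bp, had as deposited 1.91 ± 0.16 RPKM but 0.201 ± 0.017 RPKM over all exons (SD, n = 4 each), from 165 reads. Kif7, a regulator of Hedgehog signalling at the cilium tip, had 1.67 ± 0.21 RPKM (SD, n = 4). Kif27, Kif24, Kif17 and Kif6 were between 0.110 and 0.3996 RPKM, and Kif6 rested on 73 reads. Kif19a, which sets the length of motile cilia, was listed at 0. A listed 0 here means no allele-assigned read and does not exclude reads without a SNP.

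Of the 4 members outside these roles, Kif16bos, a transcript on the strand opposite to Kif16b, had 1.22, 0.88, 1.51 and 1.00 RPKM from 109 reads. Kif28 had 0.837 ± 0.097 RPKM (SD, n = 4), the pseudogene Kif4-ps had 1 read, and Kif12 was listed at 0. Whether reads were counted by strand is not given in the sources used here, so those of Kif16bos and of Kif16b may not be fully separated.

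The partners of these proteins gave the context of their levels. All 10 genes of the outer kinetochore network that binds microtubules had at least 1 RPKM, from 14.7 ± 1.29 RPKM for Dsn1 to 268 ± 31.4 RPKM for Pmf1 (SD, n = 4 each), both subunits of the MIS12 complex. All 4 genes of the chromosomal passenger complex were above 1 RPKM, from 16.6 ± 1.83 RPKM for its scaffold Incenp to 357 ± 26.7 RPKM for Birc5 (SD, n = 4 each), which encodes survivin. Of the list of 5 genes set up for the loading of CENP-A, 3 were above 1 RPKM, 1 of which, Itgb3bp (CENP-R), is known as a subunit of the constitutive network instead. Mis18a, which primes centromeres for new CENP-A, had 56.9 ± 3.39 RPKM (SD, n = 4), and Hjurp, the chaperone that delivers CENP-A, was listed at 0 in all columns.

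Among 7 spindle checkpoint genes, Bub1 was the highest at 40.0 ± 3.46 RPKM and Mad2l1 the lowest at 0.854 ± 0.10 RPKM (SD, n = 4 each). Of 9 partners of mitotic kinesins, Prc1, which bundles the midzone with Kif4 and Kif23, had 539 ± 60.9 RPKM, and Ect2, the exchange factor for RhoA that centralspindlin binds, 0.264 ± 0.026 RPKM (SD, n = 4 each). The lengths behind these values were those of the deposited table and may be as uneven as those of the members. Of 9 light chains and cargo adaptors, 6 were above 1 RPKM. The kinesin light chains Klc4 and Klc1 were highest, at 15.2 ± 2.17 and 15.2 ± 1.73 RPKM, which overlapped in the range of their libraries. Mapk8ip3, a scaffold that links kinesin to cargo, was lowest at 0.523 ± 0.028 RPKM (SD, n = 4 each).

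The alleles were then compared to ask which members were read unequally from the S129 and the CAST copy. The 53 members with at least 1 RPKM were tested by limma on the difference within each library of log2(RPKM+0.1), a scale that understates differences of low values, with Benjamini-Hochberg adjustment over 11946 genes. Differences are S129 minus CAST. An adjusted p under 0.05 was found for 34 members (64.2%), against 65.8% of all genes tested. The S129 allele was higher in 15, the 2 X-linked genes included, where 32.4% of all genes were higher on S129. The CAST allele was higher in 19, where 33.4% of all genes were. The members were thus called about as often as genes at large. When whole reads were not divided by the total of their allele, 18 members were called for S129 and 14 for CAST, as S129 holds slightly more reads.

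Of the called differences, 24 were under 1.5-fold. At least 1.5-fold was reached by 10 members (18.9%), against 26.5% of all genes tested, and in 21 members (39.6%) the 4 libraries of one allele did not overlap those of the other, against 46.1% of all genes tested. The median size of the difference was 0.21 on the log2 scale over 51 autosomal members and 0.28 over 11548 autosomal genes. By role, 13 of 17 centromere genes were called (7 for S129, 6 for CAST), 6 of 13 mitotic kinesins (4 and 2), 10 of 14 transport kinesins (3 and 7), 3 of 5 ciliary kinesins (1 and 2), and Cenpe and Cenpf for CAST among the 3 other CENP genes tested. Of the 34 calls, 9 were lost when single libraries were left out, those of Cenpa, Cenpn, Cenpu, Kif1a, Kif23, Kif2c, Kif3b, Kif5c and Kif7, with adjusted p up to 0.132 from limma. Kif11 was among the genes nearest to equality, with a log2 difference of -0.0045 (standard error 0.028, adjusted p = 0.899 from limma) and 50.4% to 51.2% of its reads from S129.

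**Figure D3:**
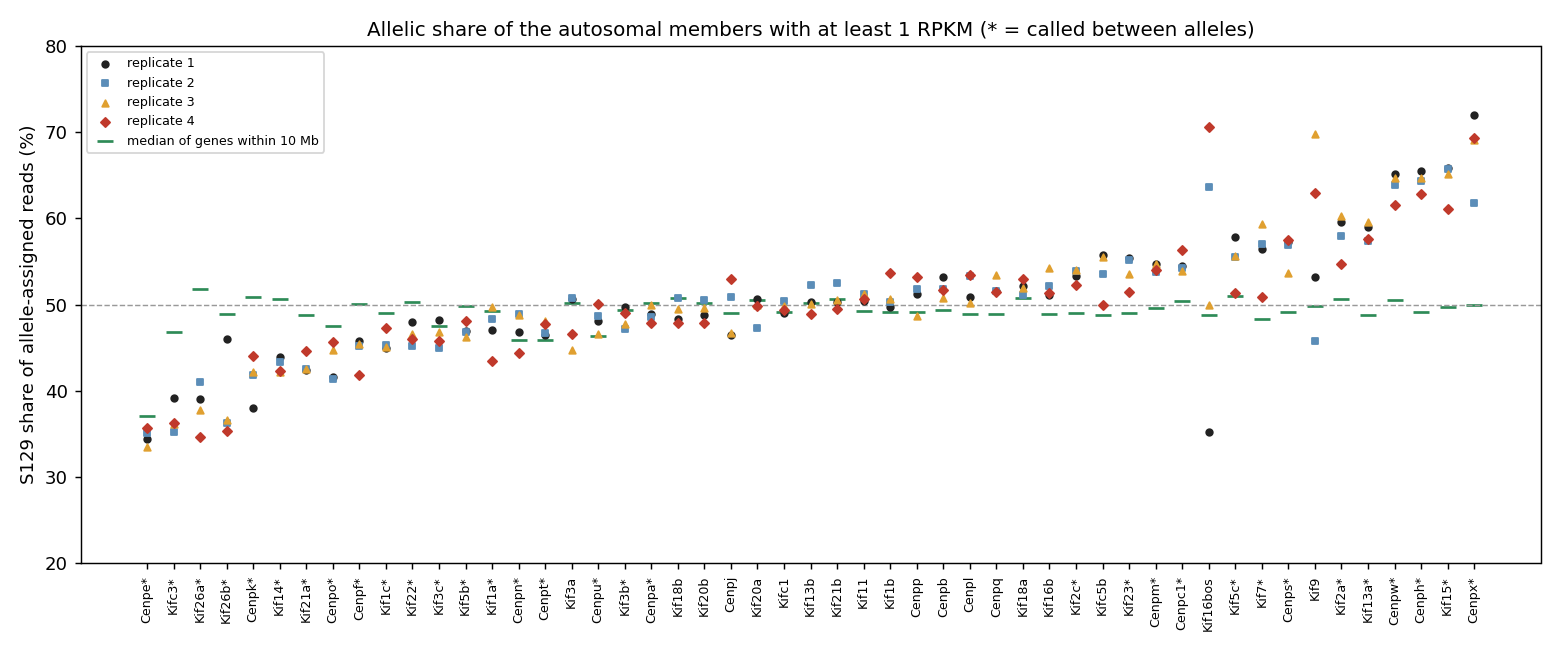
S129 share of the allele-assigned reads in each library (points) for the 51 autosomal members with at least 1 RPKM, ordered by their mean, with the share that the median log2 difference of the genes within 10 Mb corresponds to (green bars) and a dashed line at 50%. Members with an asterisk were called by limma. Cenpe is lowest with its green bar also low at 37.1%, whereas Cenpx, Kif15, Cenph and Cenpw stand at 61% to 72% with green bars near 50%.

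Cenpe had the largest autosomal difference toward CAST. Its S129 allele had 15.1, 15.6, 15.0 and 13.6 RPKM in replicates 1 to 4, and its CAST allele 29.6, 30.05, 31.0 and 25.6 RPKM. The alleles were far apart in every library, at a log2 difference of -0.96 (standard error 0.036, adjusted p = 4.79e-05 from limma). The gene lies on chromosome 3 at 135212537 to 135273611 (mm10), where the 67 other genes tested within 10 Mb had a median S129 share of 37.0% of their mean RPKM. Of these neighbours, 20 had a lower share than Cenpe, at 33.8%. With the median of the neighbours taken out, its difference was -0.20 (standard error 0.034, adjusted p = 0.00659 from limma). Pmf1, also on chromosome 3, was likewise higher on CAST as deposited, by -0.61 (standard error 0.034, adjusted p = 0.000161 from limma), and higher on S129 by 0.25 with its own neighbours taken out (adjusted p = 0.0046 from limma).

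**Figure D4:**
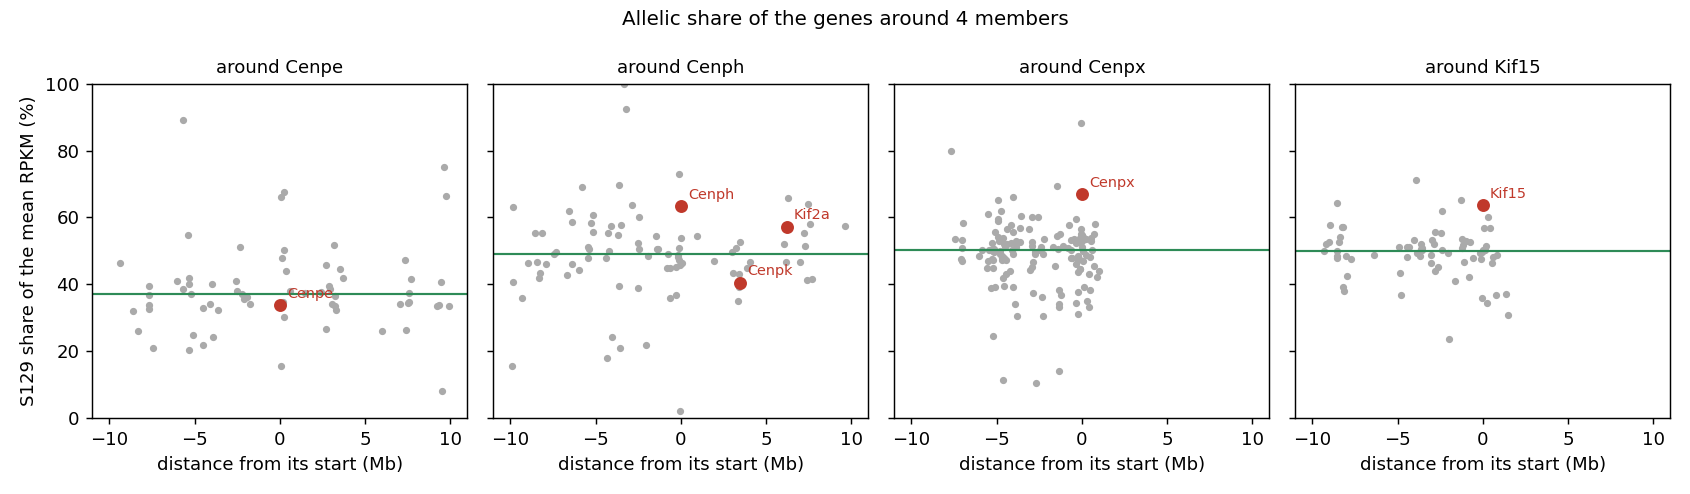
S129 share of the mean RPKM for the genes tested within 10 Mb (grey points) of Cenpe, Cenph, Cenpx and Kif15 (red points, with other members of the same window), by distance from the start of the gene, and the median of the neighbours (green line). Cenpe lies among neighbours whose median is 37.0%, while Cenph, Cenpx and Kif15 lie above most neighbours, whose medians are 49.1%, 50.2% and 50.1%.

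The next differences toward CAST were in Kifc3, Kif26a and Kif26b of the transport list, and they were called with the neighbours taken out as well. Kifc3, a minus-end directed motor of epithelial junctions, had 2.59, 2.51, 2.68 and 2.38 RPKM on S129 and 4.15, 4.81, 4.92 and 4.36 RPKM on CAST. Its log2 difference was -0.82 (standard error 0.052, adjusted p = 0.000237 from limma), or -0.63 with the neighbours taken out (adjusted p = 0.00129 from limma). Kif26a and Kif26b, atypical kinesins that act in signalling, differed by -0.70 (standard error 0.067, adjusted p = 0.000902 from limma) and -0.68 (standard error 0.12, adjusted p = 0.00661 from limma). For Kif26b the S129 share was 46.0% in replicate 1 and 35.4% to 36.6% in the other libraries, on 587 reads. These paralogs lie on chromosomes 12 and 1, and with the neighbours taken out they differed by -0.80 and -0.62 (adjusted p = 0.000916 and 0.0104 from limma).

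Subunits of the H/I/K/M complex were read unequally in opposite directions. Cenph had 54.8, 53.8, 54.4 and 46.5 RPKM on S129 and 29.8, 31.1, 30.8 and 28.6 RPKM on CAST, a log2 difference of 0.80 (standard error 0.041, adjusted p = 0.000121 from limma). Cenpk had 13.3, 12.8, 12.4 and 14.6 RPKM on S129 and 22.4, 18.6, 17.7 and 19.3 RPKM on CAST, a difference of -0.55 (standard error 0.064, adjusted p = 0.00181 from limma). In neither gene did the alleles overlap. Both lie on chromosome 13, Cenph at 100759674 to 100775899 and Cenpk at 104228611 to 104252392 (mm10), within 10 Mb of each other, and with the neighbours taken out they differed by 0.84 and -0.60. Kif2a, a depolymerase held in the transport list while Kif2b and Kif2c are in the mitotic list, lies in the same stretch. It was higher on S129 by 0.41 (standard error 0.065, adjusted p = 0.00508 from limma). Cenpm, on chromosome 15, was higher on S129 by 0.19 (standard error 0.030, adjusted p = 0.00450 from limma).

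Cenpx, on chromosome 11, was the autosomal member with the largest difference toward S129. Its S129 allele had 5.18, 5.24, 4.67 and 5.84 RPKM and its CAST allele 2.08, 3.38, 2.18 and 2.68 RPKM, which did not overlap. The log2 difference was 1.01 (standard error 0.12, adjusted p = 0.00165 from limma) on 34 to 113 reads per allele and library, and it was 1.01 with the neighbours taken out. Of the 146 neighbours, 142 had a lower S129 share. Its partner in the histone-fold complex, Cenpw on chromosome 10, was higher on S129 by 0.76 (standard error 0.050, adjusted p = 0.000262 from limma), with S129 shares of 61.5% to 65.2%. Of the other 2 partners, Cenps was called for S129 and Cenpt for CAST.

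Kif15 was the mitotic kinesin with the largest autosomal difference. It had 138, 143, 139 and 111 RPKM on S129 and 74.0, 78.0, 77.4 and 73.3 RPKM on CAST, without overlap. The log2 difference was 0.80 (standard error 0.063, adjusted p = 0.000467 from limma), and 68 of its 71 neighbours on chromosome 9 had a lower S129 share. As both alleles are divided by the same length, this difference does not depend on the short length of its RPKM. Kif11, which acts beside Kif15 in holding spindle poles apart, differed by -0.0045, as given above. Kif14 was the autosomal mitotic kinesin furthest toward CAST, by -0.46 (standard error 0.034, adjusted p = 0.000392 from limma).

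With the median of genes within 10 Mb taken out, 15 members were called for S129 and 15 for CAST (56.6% together), against 30.4% of all genes tested in each direction and 60.8% together. Of the 34 calls, 26 held in the same direction and 8 were lost, and 4 other members were called. Cenpt, Cenpu and Cenpn, all on chromosome 8 and called for CAST, lay where the median share of the neighbours was also below 50%, at 45.9% for Cenpn. Their differences went to 0.022, 0.061 and 0.022 with the neighbours taken out (adjusted p = 0.625, 0.343 and 0.793 from limma). Whether unequal mapping of the strains or SNP density within genes plays a part in any difference was not tested.

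The X-linked members were read from S129, the parent that gives the X chromosome of a male. Cenpi, a subunit of the H/I/K/M complex, had 7.91, 7.55, 9.33 and 8.03 RPKM on S129 and was listed at 0 on CAST in all libraries. Its 2549 S129 reads stood against 0 CAST reads (exact Clopper-Pearson 95% interval of the CAST share 0% to 0.145%, counting error only). With 3 CAST reads over the libraries taken as a floor, S129 was about 850-fold higher. Kif4 had 20.95, 22.6, 24.0 and 19.8 RPKM on S129 and 0, 0, 0.0085 and 0.0120 RPKM on CAST. Its 2 CAST reads among 10560 were 0.0189% (exact Clopper-Pearson 95% interval 0.0023% to 0.0684%, counting error only). Over all X-linked genes, CAST reads made up 0.112% to 0.132% of reads per library. The levels of Cenpi and Kif4 given above are means of both alleles and so lie below those of the copy that is read.

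The genes of the partner lists were called in both directions as well. In the outer kinetochore network 5 of 10 genes were called for S129 and 3 for CAST, in the passenger complex 0 and 2 of 4, and in the checkpoint list 2 and 3 of the 6 tested. Of the partners of mitotic kinesins tested, 4 and 2 of 8 were called, of the light chains and adaptors 1 and 2 of 6, and of the list for CENP-A loading 1 and 1 of 3, the first being Itgb3bp. Itgb3bp had the largest of these differences, with 11.8 ± 1.77 RPKM on S129 and 5.29 ± 0.20 RPKM on CAST (SD, n = 4 each), a log2 difference of 1.13 (standard error 0.083, adjusted p = 0.000379 from limma). Kifap3, which joins Kif3a and Kif3b to cargo, was higher on S129 by 0.53 (standard error 0.054, adjusted p = 0.00112 from limma). Incenp was higher on CAST by -0.33 (standard error 0.047, adjusted p = 0.00322 from limma), Zw10 by -0.22 (standard error 0.034, adjusted p = 0.00431 from limma), and Ckap2l, a spindle protein, was higher on S129 by 0.19 (standard error 0.048, adjusted p = 0.0228 from limma).

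Between libraries, replicate 4 moved most members. The mitotic kinesins deviated in it by a median of -0.17 on the log2 scale from their own mean over 4 libraries, against -0.098 for all 11946 genes and -0.025 for centromere genes. The shift was not particular to them, with -0.17 for ciliary kinesins, -0.14 for the other CENP genes and -0.084 for transport kinesins. Replicate 4 was the lowest library for 11 of the 13 mitotic kinesins and for 8 of the 17 centromere genes. Over all members it was the lowest library for 32 of 53 (60.4%), and over all genes with at least 1 RPKM for 55.1%. Cenpm, Cenpw and Cenpa went the other way, above the mean of the other libraries by 0.35, 0.34 and 0.30 in replicate 4. For all genes, those whose longest transcript was under 1500 bp had a median of 0.12 in replicate 4 against the other libraries, and those of longer classes -0.12 to -0.19. The part of transcript length and of depth in these shifts was not tested. Among members with at least 1 RPKM, the largest SDs of log2 values between libraries were those of Kif16bos at 0.31, on 109 reads, Cenpb at 0.25 and Cenpl at 0.24. Cenpb had 17.9, 22.4, 20.3 and 14.9 RPKM and Cenpl was lowest in replicate 4 as well.

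**Figure D5:**
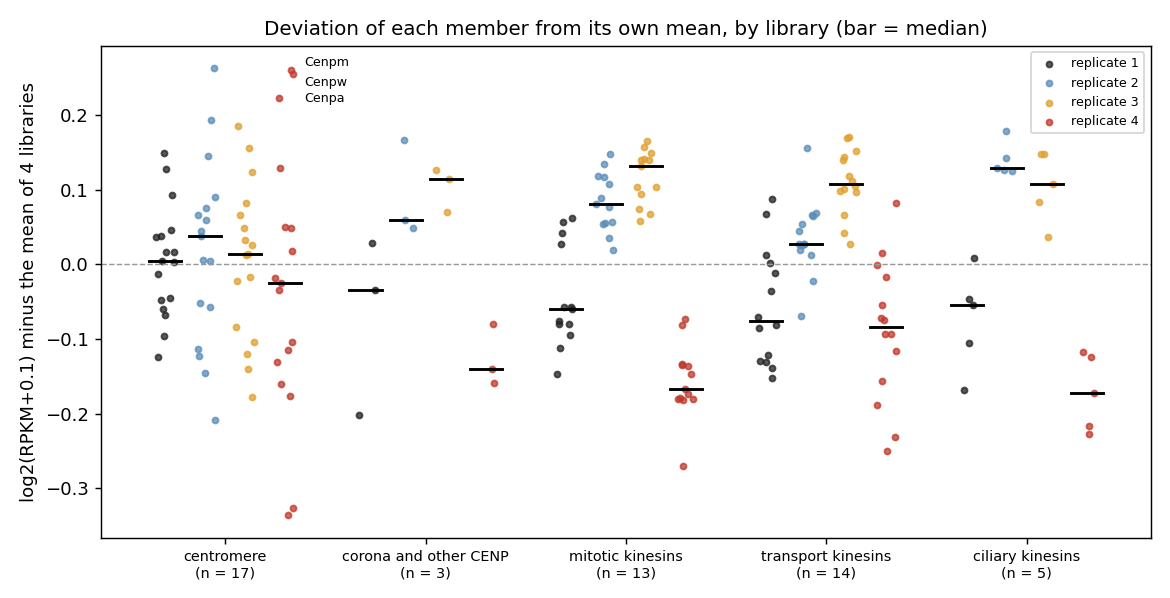
Difference of each member of the 5 role lists with at least 1 RPKM from its own mean over 4 libraries, on the log2(RPKM+0.1) scale, by role and library, with the median of each group as a black bar. In replicate 4 the bar lies at -0.17 for mitotic and for ciliary kinesins, -0.14 for the other CENP genes and -0.084 for transport kinesins. It lies at -0.025 for centromere genes, where Cenpm, Cenpw and Cenpa lie above the rest.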

How the data were processed

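RNAseq of untreated F123-ESCs was examined in 4 libraries. The authors filtered ribosomal RNA with SortMeRNA 2.1, trimmed reads with Trimmomatic 0.40, aligned them with STAR 2.6 to mm10 masked at SNPs, split them by allele with SNPsplit and deposited RPKM per gene and allele. The deposited averages and log10 values of averages were not used. The counting program and the annotation are not given in the sources used here. No column belonged to another sample.

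Totals, lengths and whole reads were recovered from the steps of the RPKM values with GENCODE M21 (99.5% of genes above 0, within 0.02 reads). For 5 members the length came from a search of 50 to 30000 bp, and their reads are the fewest possible. Levels were also computed with the length of all exons and, added after the data were seen, of the longest transcript. Alleles were compared with limma 3.58.1 in R 4.3.3 on log2(RPKM+0.1), with the library as the block, for 11946 genes averaging 1 RPKM or more, and adjusted by the Benjamini-Hochberg method at 0.05. Both columns of a library are reads of the same library, and over 11428 genes their deviations correlated at 0.221 to 0.362, against -0.267 to 0.207 between libraries. Deviations from a mean over 4 libraries sum to 0, so positive values within libraries lower those between libraries by construction. This contrast is therefore not a test of the pairing. Intervals and floors cover counting error alone, as no molecular identifiers mark separate molecules. The recovery and limma were tested on simulated data.

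The members, role lists and lists of other genes were chosen with earlier results of these data known. Named were, in each role list, the 3 highest and the 2 lowest genes, the 5 largest called differences in each direction, X-linked members, members with a difference of at least 1 after the local median was taken out, the 3 with the largest SD, genes at 0, and Kifc1 with Kifc5b. In other lists the highest, the lowest and the largest called difference were named. Further genes were named after their values were seen. Promoters came from RefSeq, and protein sequences were not used here. The alternatives were other pseudocounts and filters, a variance trend, no replicate block, whole reads, local and chromosome medians, each allele alone, other gene lengths, rescaling, the median of the libraries, other thresholds and each library left out.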

Additional observations from a re-analysis of the deposited data

Results flagged for a closer look

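In 5 of the 53 members with at least 1 RPKM, a single library stood apart from the other 3 by Dixon's criterion, and it was replicate 4 in each case. Chance flags about 1 in 20 independent groups, or 2.65 of 53 members. The members are not independent here, as replicate 4 deviated by a median of -0.098 on the log2 scale over all 11946 genes. The share of all genes that the criterion flags was not computed, so the count is not a result about the members. Cenpm was high in replicate 4, at 131 RPKM against 101 to 106 RPKM in the others. Low values were found for Cenph at 37.6 RPKM, Cenpc1 at 12.4 RPKM, Kif18a at 23.0 RPKM and Kif5b at 32.1 RPKM. Replicate 4 has the fewest reads of the libraries, and what sets these values apart was not tested.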

How the results depend on the processing

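Without the replicate block, that is with the alleles as unpaired groups, 9 members were called for S129 and 11 for CAST in place of 15 and 19. With each library left out in turn, 11 to 16 members were called for S129 and 14 to 16 for CAST, and 53 to 54 members had at least 1 RPKM. The other settings left both counts within 1.5 times. Over all settings, 589 of the member differences computed held in direction and call, 64 were no longer called, 13 became called and 7 reversed. With the chromosome median taken out, Cenpi went to -0.36 (adjusted p = 0.0110 from limma), Cenpt to 0.024, Cenpu to 0.088 and Cenpn to 0.021, and with the median of genes within 10 Mb Cenpt went to 0.022, Cenpu to 0.061 and Cenpn to 0.022. The fitted differences of Cenpi and Kif4, 6.37 and 7.70, depend on the pseudocount because CAST is at or near 0.

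With the length of all exons, the median RPKM was 11.2 for centromere genes, 7.73 for the other CENP genes, 10.4 for mitotic, 3.14 for transport and 0.297 for ciliary kinesins. With the longest transcript, it was 13.9 for centromere genes, 19.6 for mitotic and 0.336 for ciliary kinesins, so that the mitotic median is above the centromere one with this length and the deposited one but not with all exons. These shifts come from the length by construction. On S129 alone the other CENP genes had 8.75 RPKM and on CAST alone 11.5 RPKM, and ciliary kinesins had 0.893 RPKM on CAST alone. Depth limits the differences of members with few reads, such as Kif9 with 165 and Kif16bos with 109.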
